A study of Mus musculus with 8 samples.

Results

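Small nucleolar RNAs (snoRNAs) were examined in total RNA from the hippocampus of mice homozygous for the Wfs1tm1Koks allele and of wild-type mice. The members were the entries of the deposited count table whose symbol starts with Snora or Snord, with entries carrying a duplicate suffix left out. This gave 107 of 24078 entries, 35 named Snora and 72 named Snord. At least 1 count was seen for 101 of them, all 35 Snora and 66 of the Snord entries. The Snord entries with no count in any library were Snord14a, Snord14c, Snord14d, Snord53, Snord98 and 1 of 2 entries named Snord58b. A filter on low counts left 98 for testing, 35 Snora and 63 Snord, and the members with counts that it removed were Snord19, the other Snord58b entry and Snord118, which had a single count.

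The homozygous group held 4 mice (animals 15, 16, 17 and 18) and the wild-type group 4 mice (animals 7, 8, 9 and 10), and both carry the strain label Wfs1tm1Koks. No treatment is named, and the labels give neither age nor sex. Wfs1 codes for wolframin, a membrane protein of the endoplasmic reticulum. Ribosomal RNA was depleted from the total RNA before whole-transcriptome libraries were made and sequenced with paired reads of 50 and 35 bases. Library totals were between 3250949 and 5077114 counts in homozygous mice and between 3296309 and 6747411 counts in wild-type mice. Wfs1 itself had 12.03 to 17.7 CPM, counts scaled to a common library size, in homozygous hippocampus against 44.6 to 61.3 CPM in wild-type hippocampus, a log2 fold change of -1.81 (SE 0.16, adjusted p = 2.62e-05). Over all genes, 41.1% of the 20478 entries tested differed between the genotypes at an adjusted p under 0.05, 20.4% lower and 20.7% higher in homozygous mice, so a call alone was common. In bulk tissue, fewer cells of a type and less RNA per cell cannot be told apart.

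SnoRNAs are short nuclear RNAs that guide the chemical modification of other RNAs, above all ribosomal RNA, through base pairing. C/D box snoRNAs, named Snord, carry a C box and a D box that bring their ends together and recruit fibrillarin, which methylates the ribose of the target. H/ACA box snoRNAs, named Snora, fold into hairpins followed by an ACA box and recruit dyskerin, which turns uridine into pseudouridine. In mammals most of them lie inside introns of other genes, called hosts, and are trimmed out of the excised intron. Many hosts code for ribosomal proteins or for proteins of ribosome assembly and translation, and others are noncoding RNAs such as Gas5.

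The boxes that give the classes their names were looked up in the annotated sequence of each member with counts. The letters TGATG, the core of the C box, stood in the first 30 bases of 84.8% of the 66 Snord members and of 0 of the 35 Snora members, against 25.9% of all 1508 annotated snoRNA genes. The D box letters CTGA stood in the last 25 bases of all 66 Snord members, of 14.3% of the Snora members and of 57.6% of all annotated snoRNA genes. The letters ACA stood in the last 10 bases of 94.3% of the Snora members, of 10.6% of the Snord members and of 47.3% of all annotated snoRNA genes. Only the strand of the snoRNA was searched. The names of the members thus went with the boxes in their sequences. The Snora members were 121 to 196 bases long with a median of 132 bases, and the Snord members 64 to 238 bases with a median of 79.5 bases.

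The sequences of 6 Snord members and 1 Snora member are given because the results turn on them. They are the C/D members with the 3 largest falls (Snord34, Snord45b and Snord100), the most abundant member per length that fell (Snord89), the H/ACA member with the largest fall (Snora20), Snord15a, the C/D member that was called higher, and Snord15b, which shares its host. They are read 5′ to 3′ from the mm10 genome at the positions of GENCODE release M21, and capitals mark the C box letters TGATG and D box letters CTGA in the Snord members and the ACA box in the Snora member.
Snord34: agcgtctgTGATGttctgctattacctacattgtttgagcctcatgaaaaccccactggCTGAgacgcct
Snord45b: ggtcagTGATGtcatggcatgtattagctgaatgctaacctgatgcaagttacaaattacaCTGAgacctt
Snord100: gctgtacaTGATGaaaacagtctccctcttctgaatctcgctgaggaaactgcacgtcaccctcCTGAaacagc
Snord89: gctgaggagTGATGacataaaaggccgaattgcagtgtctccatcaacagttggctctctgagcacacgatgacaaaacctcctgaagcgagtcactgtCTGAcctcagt
Snord15a: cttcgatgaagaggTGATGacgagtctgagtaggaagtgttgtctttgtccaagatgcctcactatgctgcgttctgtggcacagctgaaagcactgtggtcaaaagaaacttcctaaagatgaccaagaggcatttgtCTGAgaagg
Snord15b: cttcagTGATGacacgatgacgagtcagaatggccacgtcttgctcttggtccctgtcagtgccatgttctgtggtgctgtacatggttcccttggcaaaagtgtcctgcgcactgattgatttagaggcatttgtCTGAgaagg
Snora20: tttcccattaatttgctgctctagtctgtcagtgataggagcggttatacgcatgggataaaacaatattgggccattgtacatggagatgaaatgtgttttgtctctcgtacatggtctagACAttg
Snord34 lies on the minus strand at chr7:45126601-45126670, within an intron of Rpl13a. Snord45b lies on the minus strand at chr3:153910563-153910633 in Rabggtb and Snord100 on the minus strand at chr10:23785750-23785823 in Rps12, both overlapping an annotated exon of the host. Snord89 lies on the minus strand at chr1:39548745-39548854 within an intron of the noncoding gene Gm15832. Snord15a and Snord15b lie on the minus strand in Rps3, at chr7:99482785-99482932 within an intron and at chr7:99479563-99479707 over an annotated exon. Snora20 lies on the plus strand at chr17:12922790-12922917 within an intron of Tcp1.

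Many C/D box snoRNAs and some H/ACA box snoRNAs were lower in homozygous hippocampus. Of the 63 Snord members tested, 34 fell, 1 rose (Snord15a) and 28 did not pass the test, so 54% fell, against 20.4% of all entries. Of the 35 Snora members tested, 11 fell, 1 rose (Snora68) and 23 did not pass, so 31.4% fell. On the log2 scale, fold changes had a median of -0.92 over the Snord members and of -0.42 over the Snora members, against 0.05 over all entries tested. All 4 homozygous libraries lay below all 4 wild-type libraries for 28 Snord and 9 Snora members, where 18.8% of all entries did so, and the reverse held for 0 members of either class, where 18.8% of all entries did so. The fall was at least 2-fold in 26 Snord and 6 Snora members. Whether the 2 classes differed was not tested, since the members are not replicates of a genotype.

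The count of H/ACA calls moved with single libraries. Without homozygous animal 18, 18 Snora members fell, with a median of -0.81 on the log2 scale, where 18.8% of all entries fell, and without wild-type animal 7, 7 fell, where 16.3% of all entries did. The count of Snord members that fell stayed between 29 and 38 whichever library was left out. Scaling mattered as well: with library totals alone in place of the scaling factors, 29 Snord members fell and 4 rose while 8 Snora members fell and 3 rose, where 11.8% of all entries fell and 32.4% rose and the median over all entries was 0.25.

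**Figure D1:**
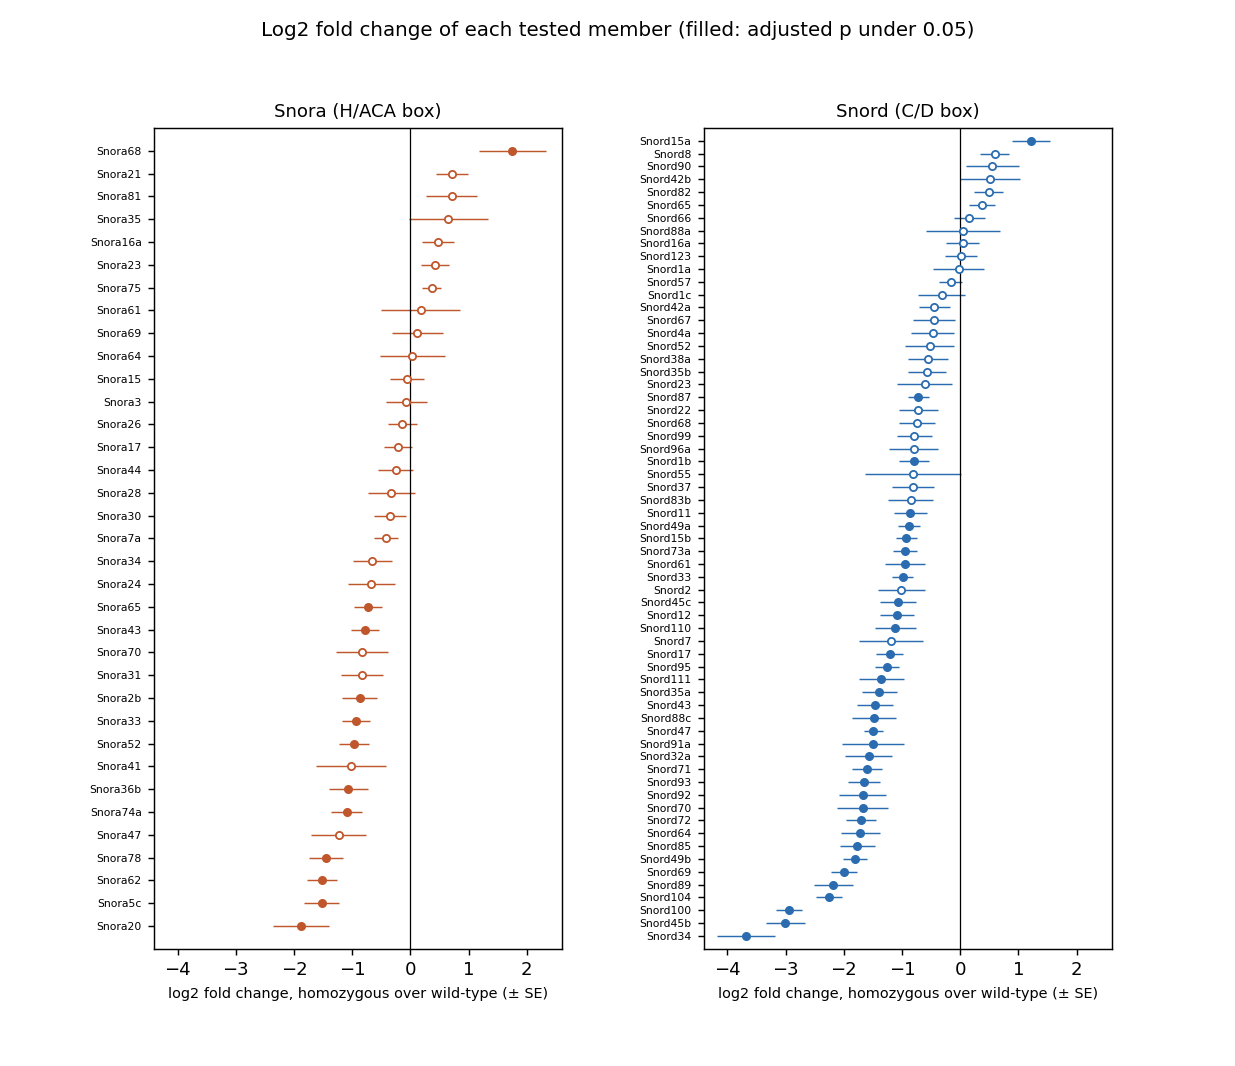
Log2 fold change of homozygous over wild-type (horizontal axis, bars ± SE) for each of the 35 Snora (left) and 63 Snord members tested (right), ordered by size. Filled points passed an adjusted p of 0.05. Of the Snord points, 53 lie below 0 and 10 above, and of the Snora points 25 lie below 0 and 10 above.

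Summed per library, the Snord members were lower in homozygous mice, while the Snora sums overlapped. The Snord members summed to 6508, 7447, 5388 and 8420 CPM in homozygous animals 15, 16, 17 and 18, against 14090, 12420, 11630 and 10140 CPM in wild-type animals 7, 8, 9 and 10. Every homozygous library lay below every wild-type one, with means of 6941 ± 1297 CPM in homozygous mice and 12070 ± 1646 CPM in wild-type mice (SD, n = 4 each), a log2 ratio of -0.80. The Snora members summed to 5285, 6627, 7302 and 11780 CPM in homozygous animals 15, 16, 17 and 18, against 6695, 6833, 6011 and 6456 CPM in wild-type animals 7, 8, 9 and 10. These ranges overlapped, the homozygous libraries were spread widely around the narrow wild-type range, and animal 18 stood highest. The Snora mean was 7748 CPM in homozygous mice and 6498 CPM in wild-type mice, though 25 of 35 Snora members had negative log2 fold changes. Much of it came from Snora81, Snora23, Snora68 and Snora21. Their means were 2238, 1016, 893 and 771 CPM in homozygous mice and 1370, 756, 264 and 471.5 CPM in wild-type mice. The Snora sum thus leaned on a few RNAs.

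The Snora sum divided by the Snord sum was 0.812, 0.890, 1.36 and 1.40 in homozygous animals 15, 16, 17 and 18, against 0.475, 0.550, 0.517 and 0.636 in wild-type animals 7, 8, 9 and 10. All homozygous libraries lay above all wild-type libraries, and animals 17 and 18 stood apart from 15 and 16 within their group. With animals 17 and 18 left out together, the log2 ratio of homozygous to wild-type sums was -0.13 for Snora, against 0.25 with all libraries. These animals had the highest homozygous Snora sums, so leaving them out could only lower that ratio. With any 1 library left out it was between -0.02 and 0.40. As a share of all counts, Snord members made up 0.740 ± 0.127% in homozygous mice and 1.12 ± 0.136% in wild-type mice, and Snora members 0.822 ± 0.277% in homozygous mice and 0.605 ± 0.0337% in wild-type mice (SD, n = 4 each). Without the most abundant member of each class the Snord log2 ratio was -0.90 and the Snora log2 ratio 0.10.

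**Figure D2:**
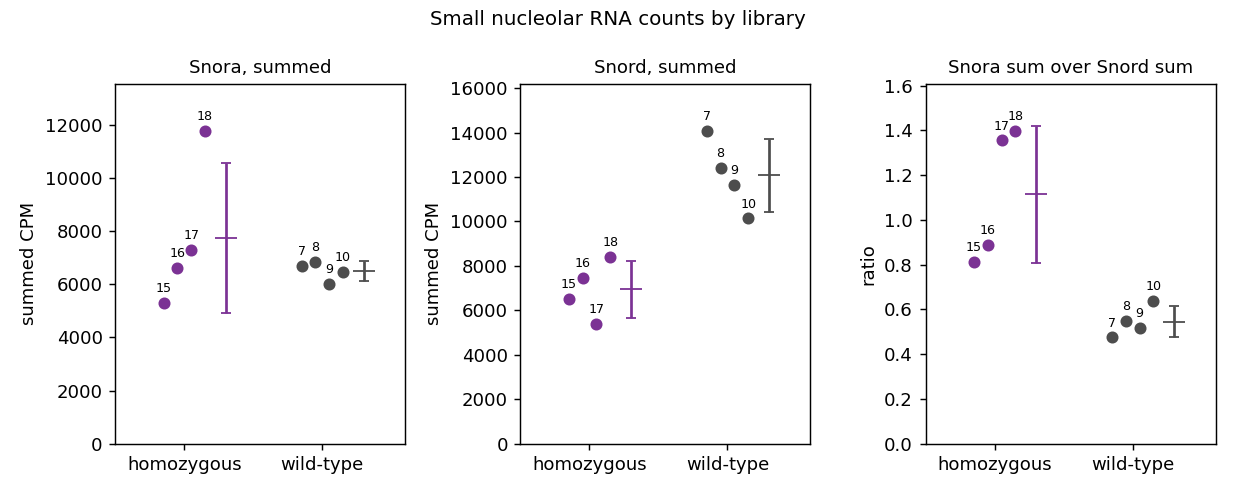
Summed CPM of the Snora members (left), of the Snord members (middle) and the ratio of the first sum to the second (right) in each library, numbered by animal, with the mean and SD of each group beside the points. The homozygous Snord sums of 5388 to 8420 CPM lie below the wild-type sums of 10140 to 14090 CPM, while the Snora sums overlap.

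Abundance moved with the fold change over the whole table. With all tested entries cut into 10 equal bins by mean CPM, the bin medians of the log2 fold change ran from 0.30 in the lowest bin to -0.46 in the highest. The highest bin held 27 of the 63 Snord and 13 of the 35 Snora members tested. Set against the median of the entries of like abundance, 53 of the 63 Snord members and 20 of the 35 Snora members lay below it. In the highest bin the median was -0.86 over Snord members and -0.07 over Snora members. With the trend of fold change on abundance removed, 28 Snord members fell and 4 rose, while 10 Snora members fell and 5 rose, where 18.2% of all entries fell and 16.9% rose.

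**Figure D3:**
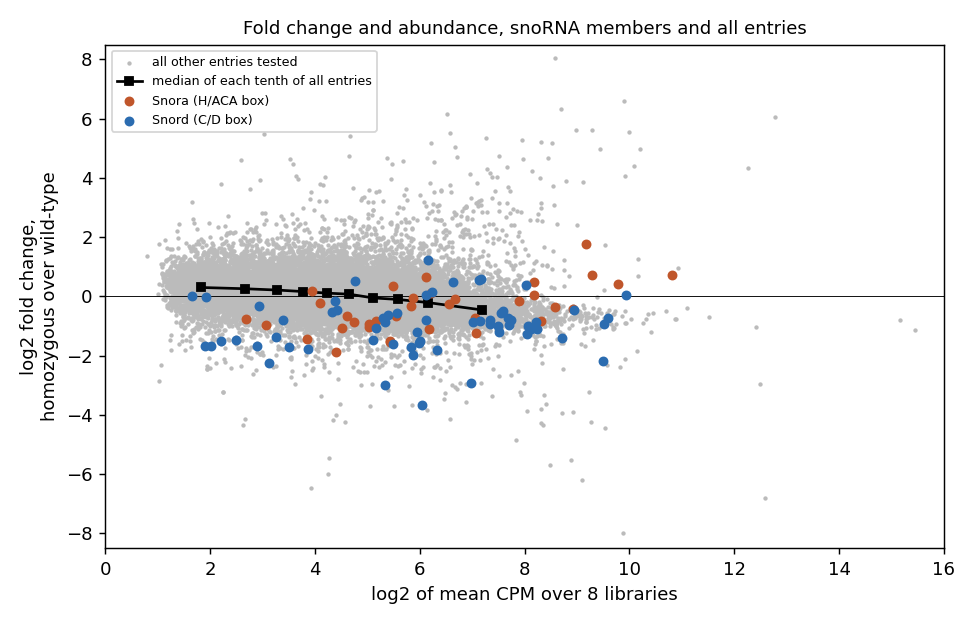
Log2 fold change of homozygous over wild-type (vertical axis) against the log2 of mean CPM over 8 libraries (horizontal axis) for every entry tested, with Snora members in orange, Snord members in blue and the median of each of 10 equal bins of all entries as black squares. The black line runs from 0.30 at the low end to -0.46 at the high end, and 53 of 63 Snord members lie below the median of their own bin.

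Among the C/D box snoRNAs, the introns of Rpl13a, which codes for a protein of the large ribosomal subunit, held 4 members, and all of them fell. Of these, Snord32a, Snord33 and Snord35a are known from rodent cells in culture to be needed for cell death under lipid overload. Snord34 had 8.12, 4.94, 16.8 and 8.81 CPM in homozygous animals 15, 16, 17 and 18, against 178, 53.9, 199 and 57.6 CPM in wild-type animals 7, 8, 9 and 10. All homozygous values were low, and the wild-type values split into a higher pair (animals 7 and 9) and a lower pair (animals 8 and 10). Its log2 fold change of -3.68 (SE 0.50, adjusted p = 0.000350) was the largest fall among the members. Snord32a had 28.6, 19.5, 52.6 and 27.9 CPM in homozygous animals 15, 16, 17 and 18, against 128, 55.6, 152 and 43.8 CPM in wild-type animals 7, 8, 9 and 10. The same wild-type pairs stood apart, and homozygous animal 17 overlapped wild-type animal 10 (log2 fold change -1.57, SE 0.40, adjusted p = 0.00980). Snord35a (-1.39, SE 0.30) and Snord33 (-0.99, SE 0.18) were lower on the log2 scale with no overlap between the groups, and Snord33 lies over an annotated exon of Rpl13a.

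Rabggtb, which codes for a subunit of a Rab prenylating enzyme, held Snord45b and Snord45c. Snord45b had 9.36, 2.03, 10.99 and 13.2 CPM in homozygous animals 15, 16, 17 and 18, against 75.0, 68.5, 86.6 and 56.4 CPM in wild-type animals 7, 8, 9 and 10. The groups lay far apart (log2 fold change -3.004, SE 0.33, adjusted p = 0.000110). Snord45c, called at a smaller log2 fold change of -1.07 (SE 0.31, adjusted p = 0.0181), had 43.6 CPM in homozygous animal 15, within the wild-type range of 39.1 to 56.4 CPM. Both members overlap an annotated exon of Rabggtb, and the host itself fell by 0.97 on the log2 scale (SE 0.20).

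Rps12, a gene for a protein of the small ribosomal subunit, held Snord100 and the H/ACA member Snora33. Snord100 had 30.9, 27.3, 33.5 and 24.1 CPM in homozygous animals 15, 16, 17 and 18, against 332, 198, 190 and 169 CPM in wild-type animals 7, 8, 9 and 10. The homozygous values were close together and far below the wild-type values (log2 fold change -2.94, SE 0.22, adjusted p = 9.33e-06). Snora33 fell by 0.94 on the log2 scale (SE 0.24, adjusted p = 0.00940), and Rps12 fell by 1.78 (SE 0.20).

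Snord89 was the most abundant member per length that fell, at 2370 CPM per kb in homozygous mice and 10720 CPM per kb in wild-type mice. It had 155, 436, 138 and 314 CPM in homozygous animals 15, 16, 17 and 18, against 1191, 1267, 950 and 1309 CPM in wild-type animals 7, 8, 9 and 10. The homozygous values varied among themselves and all lay under the lowest wild-type value (log2 fold change -2.18, SE 0.34, adjusted p = 0.000696). It overlaps no exon of another gene and has no near-identical copy in the annotation, defined as 90% identity over 80% of its length.

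Snord104, a C/D member with few counts, fell too, and so did Snord69 at a higher level. Snord104, which lies in no annotated host, had 3.36, 3.77, 2.602 and 2.35 CPM in homozygous animals 15, 16, 17 and 18, against 14.4, 12.2, 18.6 and 12.8 CPM in wild-type animals 7, 8, 9 and 10. The low counts did not bring the groups together (log2 fold change -2.25, SE 0.23, adjusted p = 5.55e-05). Snord69, in the nucleolar GTPase gene Gnl3, had 28.6, 30.2, 12.4 and 21.7 CPM in homozygous animals 15, 16, 17 and 18, against 82.7, 94.9, 91.8 and 103 CPM in wild-type animals 7, 8, 9 and 10. Its groups did not overlap either (log2 fold change -1.99, SE 0.22, adjusted p = 0.000112). Snord69 lies over an annotated exon of Gnl3.

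Snord49b in the noncoding gene 2410006H16Rik (-1.80, SE 0.21), Snord72 in Rpl37 (-1.71, SE 0.26), Snord93 in 2700038G22Rik (-1.66, SE 0.27), Snord71 in Ap1g1 (-1.60, SE 0.26), Snord47 in Gas5 (-1.50, SE 0.17) and Snord95 in Gnb2l1 (-1.25, SE 0.21) also fell on the log2 scale. Their groups did not overlap. Near-identical copies are annotated for Snord93 (Mir3096) and Snord95 (Gm25296), so their counts could have been split or shared. Snord47 and Snord95 lie over an annotated exon of their hosts.

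Snord64 was the only member kept from the imprinted Snurf-Snrpn region, whose snoRNA arrays are transcribed in brain from the paternal chromosome. It had 4.59, 5.23, 2.02 and 9.10 CPM in homozygous animals 15, 16, 17 and 18, against 21.4, 21.02, 12.2 and 14.7 CPM in wild-type animals 7, 8, 9 and 10. All homozygous values were lower (log2 fold change -1.72, SE 0.33, adjusted p = 0.00245). Snord64 overlaps an exon of Gm38393. Entries of the Snord116 array stand in the table only with a duplicate suffix, and all 30 of them had no count. Of 8 genes listed as neighbours of the Snord115 and Snord116 arrays, 4 fell, 1 rose (Magel2) and 3 did not pass, where 20.4% of all entries fell and 20.7% rose. Snurf and Snrpn, which share the long transcript of the region, both had a log2 fold change of -1.13. Their summed counts were nearly equal, 1103 and 1122 in homozygous mice and 2949 and 2985 in wild-type mice. Both entries could hold the same reads, so their falls are not separate results.

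The host gene Rps3, for a protein of the small ribosomal subunit, held 2 related C/D members with opposite calls. Snord15b had 434, 425, 492 and 665 CPM in homozygous animals 15, 16, 17 and 18, against 1072, 1078, 874 and 799 CPM in wild-type animals 7, 8, 9 and 10. It was lower in every homozygous library (log2 fold change -0.92, SE 0.19, adjusted p = 0.00307). Snord15a had 48.6, 131, 69.1 and 150 CPM in homozygous animals 15, 16, 17 and 18, against 54.4, 52.2, 33.7 and 31.6 CPM in wild-type animals 7, 8, 9 and 10. Homozygous animals 16 and 18 were high, and animal 15 lay within the wild-type range (log2 fold change 1.22, SE 0.33, adjusted p = 0.0131). The 2 sequences printed above share 96 of 152 aligned positions, or 63.2% identity. Snord15a was called higher under every alternative processing and with any 1 library left out. Snord15b lost its call with the abundance trend removed (log2 fold change -0.32, adjusted p = 0.163) and in no other alternative, so the calls were then no longer opposite.

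Of the 5 C/D members with the highest mean CPM, Snord89 and Snord15b fell and Snord16a, Snord22 and Snord67 did not pass the test. Snord16a, in the ribosomal protein gene Rpl4, ranked highest in its class per length with 10020 CPM per kb in homozygous mice and 9752 CPM per kb in wild-type mice. It had 1214, 870, 586 and 1299 CPM in homozygous animals 15, 16, 17 and 18, against 1170, 1090, 1054 and 548 CPM in wild-type animals 7, 8, 9 and 10, with full overlap (log2 fold change 0.04, SE 0.29). Snord22, known as U22 and needed in frog oocytes for processing of the small subunit RNA, had a log2 fold change of -0.72 (SE 0.34, adjusted p = 0.107) and Snord67 one of -0.45 (SE 0.36, adjusted p = 0.336). Snord16a, Snord22 and Snord67 each overlap an annotated exon of their host, so reads of the host could stand in their counts.

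Among the H/ACA box snoRNAs, the members that fell had a mean of at most 1023 CPM per kb over the 8 libraries, the level of Snora65. Snora20, in the chaperonin subunit gene Tcp1, had 9.54, 4.65, 2.02 and 19.96 CPM in homozygous animals 15, 16, 17 and 18, against 52.7, 22.7, 34.6 and 22.9 CPM in wild-type animals 7, 8, 9 and 10. The groups did not overlap, though homozygous animal 18 came close to the lowest wild-type values (log2 fold change -1.88, SE 0.48, adjusted p = 0.00961). Without animal 18 the log2 fold change was -2.53.

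Snora62, in the ribosomal protein gene Rpsa, had 32.1, 22.9, 13.6 and 19.7 CPM in homozygous animals 15, 16, 17 and 18, against 52.5, 79.0, 46.2 and 79.5 CPM in wild-type animals 7, 8, 9 and 10. The groups were separate (log2 fold change -1.51, SE 0.26, adjusted p = 0.00114). Snora78, in the noncoding gene Snhg9, had 9.54, 4.94, 5.20 and 10.9 CPM in homozygous animals 15, 16, 17 and 18, against 24.4, 14.2, 16.5 and 28.8 CPM in wild-type animals 7, 8, 9 and 10. Its homozygous libraries were all lower (log2 fold change -1.45, SE 0.29, adjusted p = 0.00308).

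Snora5c in Tbrg4 fell by 1.53 (SE 0.30), Snora74a fell by 1.10 (SE 0.27) and Snora52 in Rplp2 fell by 0.98 (SE 0.26) on the log2 scale, with no overlap between the groups. Snora36b in Rab3gap2 (-1.06, SE 0.34), Snora2b (-0.87, SE 0.30), Snora43 (-0.78, SE 0.24) and Snora65 in Rpl12 (-0.72, SE 0.24) fell by less, and the groups of Snora36b, Snora43 and Snora65 overlapped. Each of these 4 calls was lost when some single library was left out. Near-identical copies are annotated for Snora5c, Snora33, Snora2b and Snora65. In addition, Snora5c, Snora52, Snora33, Snora2b, Snora65 and Snora74a overlap an annotated exon of another gene on the same strand, so reads of that gene could stand in their counts.

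Snora68 was the 1 H/ACA member that rose, and it ranked 4 in its class per length. It had 464, 552, 1129 and 1426 CPM in homozygous animals 15, 16, 17 and 18, against 482, 65.1, 388 and 121 CPM in wild-type animals 7, 8, 9 and 10. Homozygous animals 17 and 18 were highest, wild-type animals 8 and 10 lowest, and homozygous animal 15 lay below wild-type animal 7 (log2 fold change 1.75, SE 0.57, adjusted p = 0.0286). The call was lost without homozygous animal 17 (1.61, adjusted p = 0.0552), homozygous animal 18 (1.43, adjusted p = 0.0734) or wild-type animal 10 (1.499, adjusted p = 0.0774). Snora68 overlaps an annotated exon and has a near-identical copy, Gm22661, so its count is uncertain.

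Snora81, in the translation factor gene Eif4a2, was the most abundant member per length, with 12570 CPM per kb in homozygous mice and 7696 CPM per kb in wild-type mice. It had 738, 2723, 1759 and 3732 CPM in homozygous animals 15, 16, 17 and 18, against 918, 2030, 802 and 1730 CPM in wild-type animals 7, 8, 9 and 10. Values within each genotype varied widely, and the groups overlapped (log2 fold change 0.71, SE 0.44, adjusted p = 0.218). Snora21 in Rpl23 (0.71, SE 0.28, adjusted p = 0.0579) and Snora23 in the importin gene Ipo7 (0.43, SE 0.24, adjusted p = 0.179) had positive log2 fold changes that did not pass, and Snora7a in Rpl32 a negative one (-0.42, SE 0.20, adjusted p = 0.119). Snora81 overlaps an annotated exon of Eif4a2 and has a near-identical copy, Gm22519. Snora21 has a near-identical copy, Gm23795, and Snora7a overlaps an annotated exon of Rpl32. The counts of Snora81, Snora21 and Snora7a, and the Snora sums that include them, are uncertain for that reason.

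**Figure D4:**
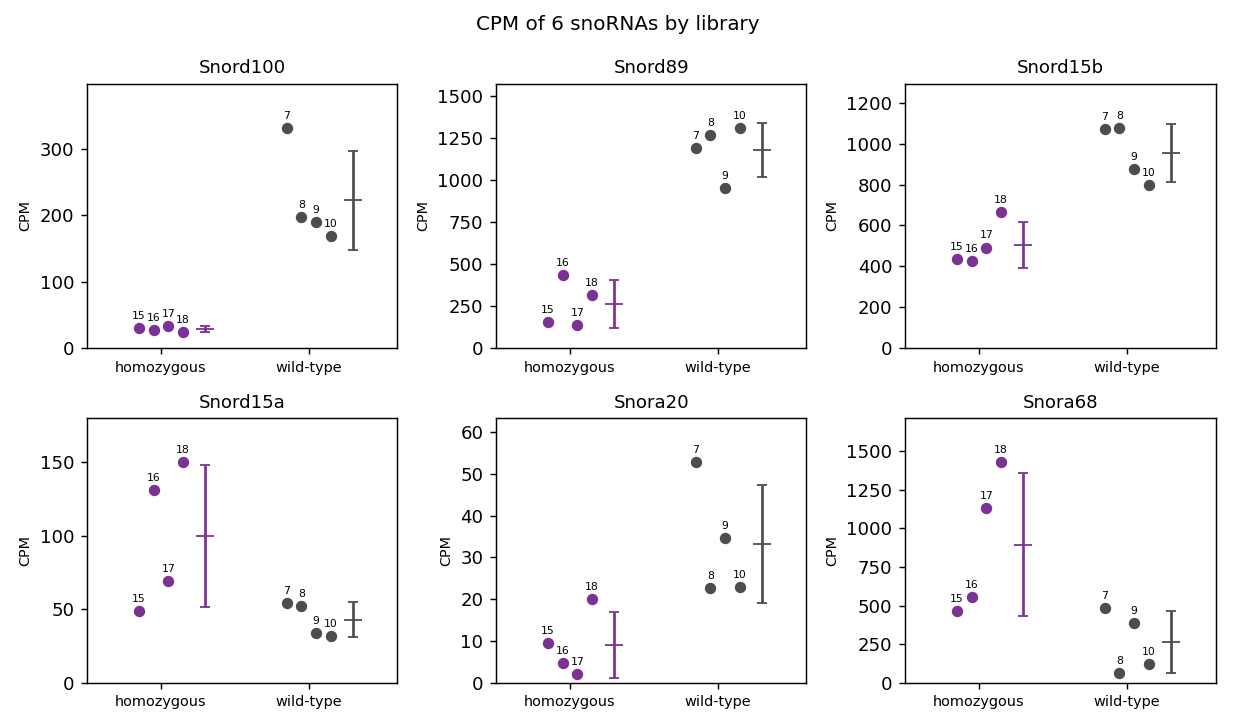
CPM of 6 members in each library (points numbered by animal), with the mean and SD of each group beside them, each panel on its own linear axis from 0. Snord100, Snord89, Snord15b and Snora20 are lower in every homozygous library than in any wild-type library, while homozygous and wild-type values overlap for Snord15a and Snora68.

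Position in the genome was compared for the 101 members with counts. Of these, 97 lie within an annotated host on the same strand, 74 of them in a protein-coding gene and 23 in a gene of another type. A total of 51 overlap an annotated exon of another gene, 24 have a near-identical copy, and 42 have neither. Among the members with neither, 20 of 31 Snord members fell and 1 rose, at a median of -1.12 on the log2 scale, and 5 of 11 Snora members fell and 0 rose, with a median of -0.83. For Snora, the median over members with an overlap or a copy was -0.29. Of all entries tested, 20.4% fell and 20.7% rose.

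Of the Snord members with an overlap or a copy, 14 of 32 fell, with a median of -0.79, where 20.4% of all entries fell. Whether these divisions of the members differed was not tested.

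Length and the kind of host were also tabulated. Of 53 Snord members under 100 bases, 30 fell with a median of -0.95, and of 10 Snord members of 100 bases or more, 4 fell and 1 rose with a median of -0.67. This division by length was chosen after the values were seen. In hosts that code for ribosomal proteins 9 of 19 Snord members fell (median -0.85), in other protein-coding hosts 16 of 27 (median -1.07) and in noncoding hosts 8 of 16 (median -0.79). The matching counts for Snora were 4 of 11 (36.4%), 5 of 15 (33.3%) and 1 of 7 (14.3%). For all counts in this paragraph, the shares over all entries were 20.4% that fell and 20.7% that rose.

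The host genes of these snoRNAs were lower as well. Of the 64 tested hosts of the 90 tested members whose host has an entry, 42 fell, 1 rose (Rbmx, host of Snord61) and 21 did not pass. Among all entries, 20.4% fell and 20.7% rose. The median over the hosts was -0.64 on the log2 scale. Every one of the 90 members had more CPM per kb than its host, at a median of 43.2-fold. Hosts of strongly changed members included Rps12 (-1.78), Rpsa (-1.41), Rpl37 (-1.42), Rabggtb (-0.97), Tcp1 (-0.90) and Rpl13a (-0.53) on the log2 scale, all called lower. Other such members had hosts that were not called, among them 2410006H16Rik (0.03, host of Snord49b), 2700038G22Rik (0.23, Snord93), Gas5 (-0.48, Snord47), Tbrg4 (-0.11, Snora5c) and Wdr43 (0.31, Snord92). Of a separate list of known snoRNA host genes, 39 were tested, 27 fell, 1 rose and 11 did not pass.

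SnoRNAs and hosts did not always share a call. In 24 of the 88 pairs in which both were tested, both fell. In 15 the snoRNA fell and the host did not, and these include Snord61 (-0.95), whose host Rbmx rose (0.79). In 33 the host fell and the snoRNA was not called. In 2 the snoRNA rose while the host fell, and in 14 neither passed. The pairs with opposite calls included Snord15a with Rps3 (-0.97) and, in the other direction, Snord61 with Rbmx.

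Whether a snoRNA moved apart from its host was tested on the difference of their log2 CPM in the same library, with an exact two-sided permutation test. Of the 88 pairs, 0 passed an adjusted p of 0.05 (smallest adjusted p = 0.148), and 17 had an unadjusted p of 0.0286, the smallest that 70 splits of 8 libraries can give. After adjustment a pair could pass only if many others shared that smallest p. The count of 0 therefore cannot show that members moved with their hosts. The median of the difference, homozygous minus wild-type, was -0.30 over 58 Snord pairs and 0.20 over 30 Snora pairs. Over the pairs whose member overlaps no annotated exon, a choice made after the values were seen, it was -0.77 for 30 Snord pairs and -0.14 for 11 Snora pairs, so the Snora median changed sign, and 0 of these 41 pairs passed (smallest adjusted p = 0.107, exact permutation test, 11 with an unadjusted p of 0.0286). Where member and host exon overlap, the same reads could stand in both counts. Of the 88 pairs, 47 have a member that overlaps an annotated exon of any gene. They include Snord42a and Snord4a, which overlap Tlcd1 on the other strand and no exon of their host Rpl23a. The host count was at least the member's in every library for 12 of the 47 pairs, Snord42a among them. For 3 of the 12 the member's count came to more than 50% of the host's, which limits how far the difference can move if the reads are shared. For Snora26 the member had 3647 counts in homozygous mice and 4937 in wild-type mice, against 3700 in homozygous mice and 5060 in wild-type mice for its host 2700023E23Rik. For Snora24 with Snhg8 the member came to 77.5% of the host count and for Snord45c with Rabggtb to 60.3%. Of all 88 pairs, the 13 Snord pairs with that smallest p included Snord34 with Rpl13a (-2.97), Snord45b with Rabggtb (-2.15), Snord92 with Wdr43 (-2.05), Snord49b with 2410006H16Rik (-1.86) and, in the other direction, Snord15a with Rps3 (2.08). The 4 Snora pairs with that p included Snora21 with Rpl23 (1.22), Snora23 with Ipo7 (0.84) and Snora5c with Tbrg4 (-1.50).

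Members of the same host gave a comparison in which the host transcript is shared. For 33 pairs of members in 17 hosts the difference of log2 CPM was tested by the same exact permutation test, a test added after the values were seen. None passed after adjustment (0 pairs, smallest adjusted p = 0.105), and 9 pairs had the smallest possible p of 0.0286, with no overlap between the genotypes. Here too a pair could pass only if many pairs shared that p, so the test could hardly give a call. In Rps3, Snord15a minus Snord15b was -2.45 in homozygous mice and -4.49 in wild-type mice, a difference of 2.04. In Rabggtb, Snord45c minus Snord45b was 1.40 in homozygous mice and -0.54 in wild-type mice, so the 2 genotypes had opposite signs.

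In Rpl13a, Snord33 minus Snord34 was 4.27 in homozygous mice and 1.77 in wild-type mice. In Rps12, Snora33 minus Snord100 was -0.45 in homozygous mice and -2.30 in wild-type mice. In the noncoding host 2410006H16Rik, Snord65 minus Snord49b was 3.01 in homozygous mice and 0.88 in wild-type mice, with Snord65 at a log2 fold change of 0.37 that did not pass and the host at 0.03. These are mean differences of log2 CPM over 4 libraries, and the genotypes did not overlap for any of these pairs.

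**Figure D5:**
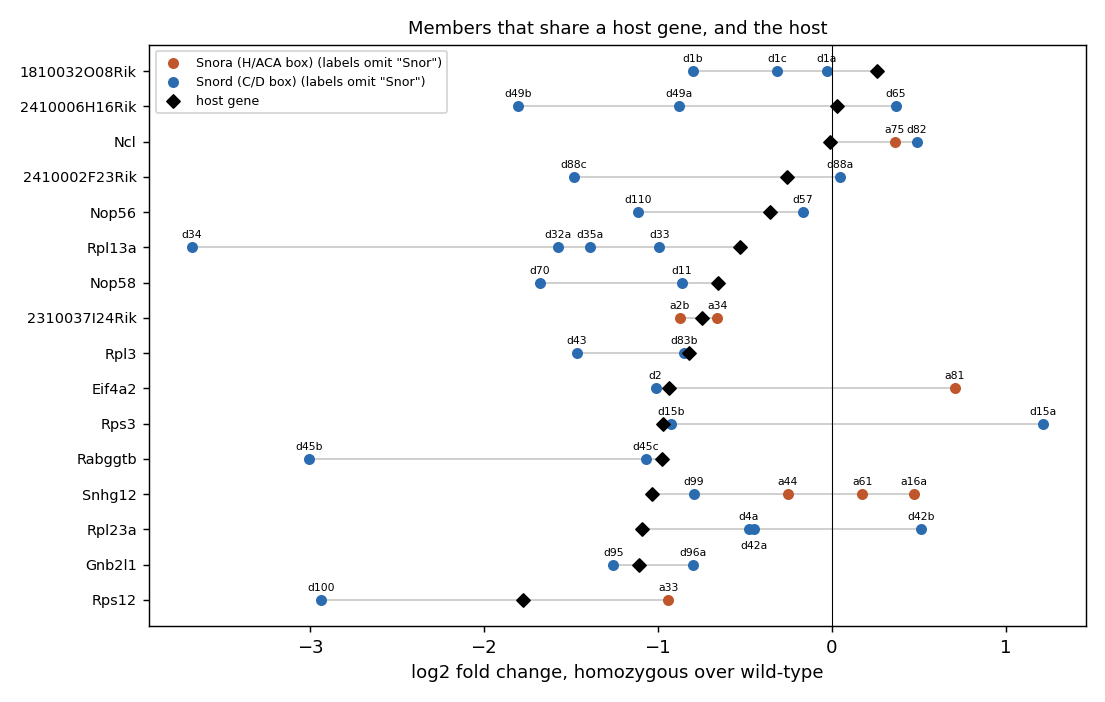
Log2 fold change of homozygous over wild-type (horizontal axis) for the members of 16 of the 17 host genes that hold 2 or more tested members, with Snora members in orange, Snord members in blue and the host as a black diamond. Members of Rpl13a, Rabggtb, Rps3 and Rps12 lie far apart on the same line, for example Snord15a at 1.22 and Snord15b at -0.92.

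Variation among animals of one genotype was large for snoRNAs. The highest library divided by the lowest had a median of 3.02 over the 98 members tested in homozygous mice and 1.77 in wild-type mice, against 1.49 in homozygous mice and 1.39 in wild-type mice over all entries tested. The widest was Snora35 in homozygous mice, at 16.4-fold, and Snord55 in wild-type mice, at 27.8-fold. Snord55 had 25.8, 159, 320 and 116 CPM in homozygous animals 15, 16, 17 and 18, against 297, 23.4, 650 and 113 CPM in wild-type animals 7, 8, 9 and 10. Wild-type animals 7 and 9 were again above animals 8 and 10.

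Snora35, described here because of that spread and so chosen after its values were seen, lies in an intron of the serotonin receptor gene Htr2c and is known as a brain-specific H/ACA snoRNA. It had 148, 9.29, 153 and 26.4 CPM in homozygous animals 15, 16, 17 and 18, against 51.0, 98.7, 36.6 and 32.2 CPM in wild-type animals 7, 8, 9 and 10. Ttr, a marker of the choroid plexus, a tissue that borders the hippocampus, had 594, 29.0, 723 and 18.5 CPM in homozygous animals 15, 16, 17 and 18, against 431, 1018, 317 and 89.8 CPM in wild-type animals 7, 8, 9 and 10. Within each genotype the animals with more Ttr were those with more Snora35, apart from the order of homozygous animals 16 and 18. Folr1, the other choroid plexus marker listed, followed Snora35 less closely. It too was highest in wild-type animal 8 and higher in homozygous animals 15 and 17 than in 16 and 18. Unlike Snora35, it was higher in wild-type animal 10 than in 7 and 9. It was also higher in homozygous animal 15 than in 17, and in 16 than in 18. Htr2c had 80.4, 101, 85.9 and 58.4 CPM in homozygous animals 15, 16, 17 and 18, against 61.5, 70.9, 65.0 and 53.2 CPM in wild-type animals 7, 8, 9 and 10. In homozygous mice it was highest in animal 16, where Snora35 was lowest. None of Snora35 (adjusted p = 0.456), Htr2c (adjusted p = 0.0857) and Ttr (adjusted p = 0.739) differed past the threshold between the genotypes. The part of adjoining choroid plexus in these values was not tested.

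Genes for proteins that bind snoRNAs were mixed, and their values are log2 fold changes. Over all entries tested, 20.4% fell and 20.7% rose, which is close to the share in some of these short lists. Of the 5 C/D particle proteins, 2 fell, Nop58 (-0.65, SE 0.18) and Nhp2l1, which binds the turn formed by the boxes (-1.003, SE 0.15), while the methyltransferase Fbl (0.25, SE 0.18), Nop56 (-0.36, SE 0.16) and Rrp9 (-0.05, SE 0.21) did not pass. Of the 4 H/ACA particle proteins, 1 fell, Nop10 (-1.45, SE 0.19), while the pseudouridine synthase Dkc1 (0.25, SE 0.18), Nhp2 (-0.53, SE 0.20) and Gar1 (-0.01, SE 0.24) did not pass. Of 12 assembly and maturation factors, 3 fell: the helicases Ruvbl1 (-0.71, SE 0.17) and Ruvbl2 (-1.09, SE 0.18), and the cap methylase Tgs1 (-1.13, SE 0.35).

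Of 14 small structured RNAs under other symbols that were tested, 8 fell, 0 rose and 6 did not pass. Of all entries, 20.4% fell and 20.7% rose. The median of the 14 RNAs was -0.89 on the log2 scale. Of the 7 tested guide RNAs of Cajal bodies among them, whose symbols start with Scarna, 1 fell, Scarna6 (-0.38, SE 0.13), while the others did not pass, with Scarna3a at 0.28. The RNAs that fell included Rmrp, the RNA of ribonuclease MRP, at 213 ± 54.4 CPM in homozygous mice and 639 ± 105 CPM in wild-type mice (SD, n = 4 each; log2 fold change -1.58, SE 0.21). Rnu12, the U12 RNA of the minor spliceosome, fell by 1.80 (SE 0.34), Vaultrc5, a vault RNA, fell by 1.63 (SE 0.26), and Rnu73b, which is itself annotated as a snoRNA and shares its U73 name with the member Snord73a, fell by 3.36 (SE 0.28). Terc, the telomerase RNA, which itself carries an H/ACA domain, fell by 1.24 (SE 0.32). Of 5 genes of the Meg3 domain, which holds another imprinted snoRNA array, 3 fell and 2 rose (Rtl1 and Dlk1). Among the noncoding ones, Rian fell by 0.84 (SE 0.15) and Meg3 fell by 0.36 (SE 0.13).

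Several markers and the Rn45s entry moved with genotype too, where 20.4% of all entries fell and 20.7% rose. Rn45s, the entry named for the ribosomal RNA precursor, fell by 1.12 on the log2 scale (SE 0.31, adjusted p = 0.0143) in libraries depleted of ribosomal RNA. It had 28000 ± 6215 CPM in homozygous mice and 60760 ± 10460 CPM in wild-type mice (SD, n = 4 each). How much of this count was precursor and how much was mature ribosomal RNA left after depletion was not tested. Among markers, all 3 for oligodendrocytes fell (summed level 666 to 762 CPM in homozygous mice against 1005 to 1615 CPM in wild-type mice), as did 2 of 3 for astrocytes (1525 to 1799 CPM in homozygous mice against 2385 to 2989 CPM in wild-type mice). Of 4 for hippocampal neurons, 2 fell and 1 rose (833 to 947 CPM in homozygous mice against 1106 to 1522 CPM in wild-type mice). Camk2a, which fell, held most of the neuron sum, with means of 658 CPM in homozygous mice and 1000 CPM in wild-type mice. Rbfox3 was the marker that rose (log2 fold change 0.48, SE 0.12), and Prox1 did not pass. Slc1a2 likewise held most of the astrocyte sum and Ttr most of the choroid plexus sum. Neither of 2 for microglia passed (32.4 to 44.3 CPM in homozygous mice against 29.2 to 49.3 CPM in wild-type mice), nor either of 2 for the choroid plexus (27.6 to 739 CPM in homozygous mice against 99.9 to 1034 CPM in wild-type mice). No marker with an entry was at 0, and the part of these shifts in the snoRNA results was not tested.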

How the data were processed

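The file the authors deposited holds whole-number counts, 1 row for each gene symbol and 1 column for each of 8 libraries, with no normalization visible in the values. Genome build mm10 is named per the submitters' processing notes. The sources used here do not say how reads were aligned and counted, on which strand, or how overlapping genes were treated. All columns were matched to samples (0 left over). The labels' design text speaks of separate individuals in each genotype.

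Counts were filtered with filterByExpr, scaled with TMM and compared by the quasi-likelihood test of edgeR 4.0.16 in R 4.3.3, with Benjamini-Hochberg adjustment over all 20478 entries tested and calls at 0.05. CPM uses TMM-scaled totals. Errors are SD for CPM and SE for log2 fold changes. Sequences, positions, hosts and exons came from GENCODE M21 on GRCm38, the assembly of mm10, and near-identical copies from blastn 2.17.0. Differences of log2 CPM (prior count 2) were tested with exact permutation over 70 splits (Python 3.11.15). The fits were tested on simulated data. Alternatives were DESeq2 1.42.0, limma 3.58.1 (voom), other scalings, filters and prior counts, removal of the abundance trend, and leaving out each library.

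The members and lists were chosen with earlier results of these data known. Members named are all those called per class and direction up to 12, otherwise the 12 of smallest p, the 5 of highest CPM per class, any member of the Snurf-Snrpn region (Snord64), their hosts, and up to 4 called genes per list. Snord32a, Snord33, Snord35a, Snord45c, Snord55, Snord65, Snord92, Snora24, Snora26, Snora35, Htr2c, Folr1, Terc and genes printed with uncalled values were named outside this rule, after their values were seen. The 2 blood markers listed have no entry under the symbols used. Some host genes are not reported here by name, and the counts include them.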

Additional observations from a re-analysis of the deposited data

Results flagged for a closer look

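Of 74 groups of 4 libraries, 1 for each genotype of 34 named members, the 2 class sums and their ratio, 3 held a library far from the others, or 4.05%, where chance gives about 1 in 20. The measure is the gap to the nearest other library divided by the whole range. For Snord47, homozygous animal 18 had 24.4 CPM and the other homozygous animals 36.0 to 37.9 CPM, a ratio of 0.862. For Snora7a, wild-type animal 10 had 626 CPM and the other wild-type animals 524 to 540 CPM, a ratio of 0.841. For Snora52, wild-type animal 10 had 15.2 CPM and the other wild-type animals 9.21 to 10.2 CPM, a ratio of 0.838. The calls for Snord47 and Snora52 were kept without those libraries.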

How the results depend on the processing

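No paired analysis was possible because the replicate numbers of the genotypes, 15 to 18 and 7 to 10, are not shared. Of the calls, 26 of 34 Snord members that fell, 7 of 11 Snora members that fell, and Snord15a were kept under every alternative, while Snora68 was not. With library totals alone, 3 Snora and 4 Snord members rose, with the abundance trend removed 5 and 4, with DESeq2 2 Snora, with limma-voom 2 Snord, and at an adjusted p of 0.1 3 Snora and 2 Snord. Leaving out 1 library gave 7 to 18 Snora members that fell, 0 to 3 Snora and 1 to 2 Snord that rose, and a Snora median of -0.81 to -0.40. The Snord median was -0.65 with the trend removed. Members with no exon overlap and no near-identical copy gave 5 Snora and 20 Snord that fell and 0 Snora that rose, since fewer were counted. Their Snora median was -0.83. Over all entries, 20.4% fell and 20.7% rose. The Snord median over members of 100 bases or more was -0.67. The Snora sum had a log2 ratio of -0.13 without homozygous animals 17 and 18, those with the highest homozygous Snora sums. The causes of the other shifts were not tested. No called member changed direction. With 8 libraries the exact test of a snoRNA against its host can give no p below 0.0286, and whether reads of a host's unspliced transcript entered a member's count was not tested.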
